A study of Mus musculus with 4 samples.

Results

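Extracellular and intracellular adenosine is made, broken down and sensed by a small set of gene products, and 8 of these genes were examined: the ectoenzyme genes Entpd1 and Nt5e, the intracellular enzyme genes Ada, Adk and Pnp, and the receptor genes Adora2a, Adora2b and Adora3. The genes were picked by symbol as one pathway, and the choice was made with the LPS differences of these arrays in view: Ada was selected on its place among the lowest genes after LPS, so its LPS difference is a description and supports nothing. Of the 8 genes, 6 had at least 1 probe set that carried their symbol alone, giving 16 of the 45101 probe sets on the array. Adora2a and Adora2b had none and were not analysed here. In all, 18193 genes were named on the array.

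The RNA came from mouse bone marrow neutrophils that had been enriched with magnetic beads and kept in serum-containing medium. The genotypes were not checked here against the targeted microRNA, for which no probe set was named. Knockout neutrophils were from miR-125a-/- mice and wild-type neutrophils from miR-125a+/+ mice, all C57BL/6 and 8 weeks old, and each genotype was taken with LPS for 3 h or without LPS. LPS (lipopolysaccharide), from the outer membrane of Gram-negative bacteria, is sensed through the receptor Tlr4. RNA of 3 experiments was pooled for each of the 4 conditions and hybridised to 1 Affymetrix array, so every condition has 1 array and no difference has a replicate check. The labels call the cells without LPS both unstimulated and 0 h, so a time in culture may differ as well as LPS, and these cannot be told apart. The sources used here do not give how the miR-125a allele was made.

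ATP and ADP that leave a cell are trimmed to AMP by CD39, the product of Entpd1, and AMP is turned to adenosine by CD73, the product of Nt5e. Adenosine then acts on G protein-coupled receptors, of which those encoded by Adora2a and Adora2b raise cyclic AMP and restrain the neutrophil oxidative burst and cytokine release, while the one encoded by Adora3 lowers it. Adenosine is removed by adenosine deaminase (Ada), which makes inosine, or by adenosine kinase (Adk), which makes AMP, and purine nucleoside phosphorylase (Pnp) splits inosine further to hypoxanthine.

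The microRNA that the knockout lacks is shown because its seed, the stretch that pairs with target transcripts, defines the perturbation. It lies at chr17:17830817-17830840 on the plus strand of GRCm38.p6 (RefSeq), and capitals mark the seed, bases 2 to 8.
mmu-miR-125a-5p: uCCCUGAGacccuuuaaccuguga

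The window around the start of Ada is shown because Ada had the widest difference of the 6 genes with probe sets. It covers chr2:163750190-163750489 on the minus strand of GRCm38.p6 (RefSeq), 250 bases before the annotated start and 50 after it, printed in the direction of transcription. Capitals mark the GC box GGGCGG, which was searched on both strands after the values were known.
Ada: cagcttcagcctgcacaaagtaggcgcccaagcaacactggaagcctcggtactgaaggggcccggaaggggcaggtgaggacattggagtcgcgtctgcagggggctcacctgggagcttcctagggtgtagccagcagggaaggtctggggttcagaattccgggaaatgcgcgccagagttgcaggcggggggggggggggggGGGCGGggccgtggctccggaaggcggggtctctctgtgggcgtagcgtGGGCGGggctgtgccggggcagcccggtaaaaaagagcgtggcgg

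This window was 68.0% G or C and held the GC box 2 times, at position -44 and at position 6 counted from the start. A GC box was found in 35.7% of all 32851 windows of that length, and it was not particular to Ada. It occurred 4 times in the Nt5e window, 4 times in each Adk window, 6 times in that of Adora2b and 1 time in that of Pnp. The windows of Adora3 and Entpd1 held none. None of the other letters searched on both strands was in the Ada window: GGGANTTTC (for NF-kB), TGACGTCA (cyclic AMP response element), TGANTCA (AP-1) and GAAANNGAA (core of the interferon-stimulated response element). These were in 1.11%, 1.79%, 7.81% and 8.56% of all windows. Windows were at hand for 7 of the 8 genes, 9 windows in all. Outside Ada, Adora3 held 1 AP-1 match at position -98 and Pnp 1 interferon-element match at position -22, and these were the sole matches to those 4 motifs. A match is only a match of letters in this window.

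Signals are on a log2 scale. A floor was set at the 60th percentile of all values, a log2 signal of 6.80, and values below it were raised to it before differences were taken. A comparison covers the genes with a signal over the floor on either of its arrays, termed measured, and a difference of 2-fold or more is called higher or lower. Where a gene had several probe sets, the brightest stood for it, and others above the floor are given where they bear on a result. Levels of different probe sets are not compared with each other.

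On each array 13 of 13 matched neutrophil markers were above the floor. Of 11 matched monocyte and macrophage markers, 9 were above it on at least 1 array, so passing the floor does not measure purity. Of all measured genes, 634 were higher and 765 lower after LPS in knockout cells, and 693 were higher and 921 lower in wild-type cells. The balance followed the scaling. On a scale set by the poly-A spike-in controls it was 312 higher and 2612 lower in knockout cells and 324 higher and 2585 lower in wild-type cells. Quantile normalization gave 735 higher and 633 lower in knockout cells and 835 higher and 707 lower in wild-type cells. Median scaling gave 737 higher and 626 lower in knockout cells and 1030 higher and 620 lower in wild-type cells. On the poly-A scale the median difference of all genes was -0.62 in knockout and -0.59 in wild-type cells, against -0.05 and -0.03 as deposited, and median scaling moved the wild-type median to 0.20.

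Ada was the only one of the 5 measured adenosine genes that differed by 2-fold between LPS and unstimulated cells. Its single probe set, 1417976_at, had log2 signals of 9.34 in knockout cells with LPS and 12.55 in knockout cells without it. In wild-type cells the signals were 9.45 with LPS and 12.81 without. Both LPS arrays therefore lay far below both unstimulated arrays, and all 4 values were well above the floor. The log2 difference was -3.22 in knockout cells, which is 9.29-fold lower, and -3.36 in wild-type cells, which is 10.3-fold lower. As unlogged signal this was 646 against 5999 in knockout cells and 698 against 7165 in wild-type cells. Over all scalings, floors and probe set rules tried, the knockout difference lay between -3.84 and -3.11 and the wild-type difference between -3.98 and -3.11. Only the scalings moved these values, since a single bright probe set leaves the floors and probe set rules nothing to change.

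Counting only genes over the floor with and without LPS, Ada had the rank of 6 from the lowest of 8493 in knockout cells and again 6 of 8404 in wild-type cells. Its neighbours in knockout cells were Il18r1, which encodes a chain of the interleukin-18 receptor, at -3.27 and Foxd4, a forkhead transcription factor, at -3.17. In wild-type cells they were Fos, an AP-1 subunit, at -3.47 and Srp54b, a signal recognition particle gene, at -3.31. Fewer cells that express Ada and less Ada RNA per cell cannot be told apart in these bulk samples.

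**Figure D1:**
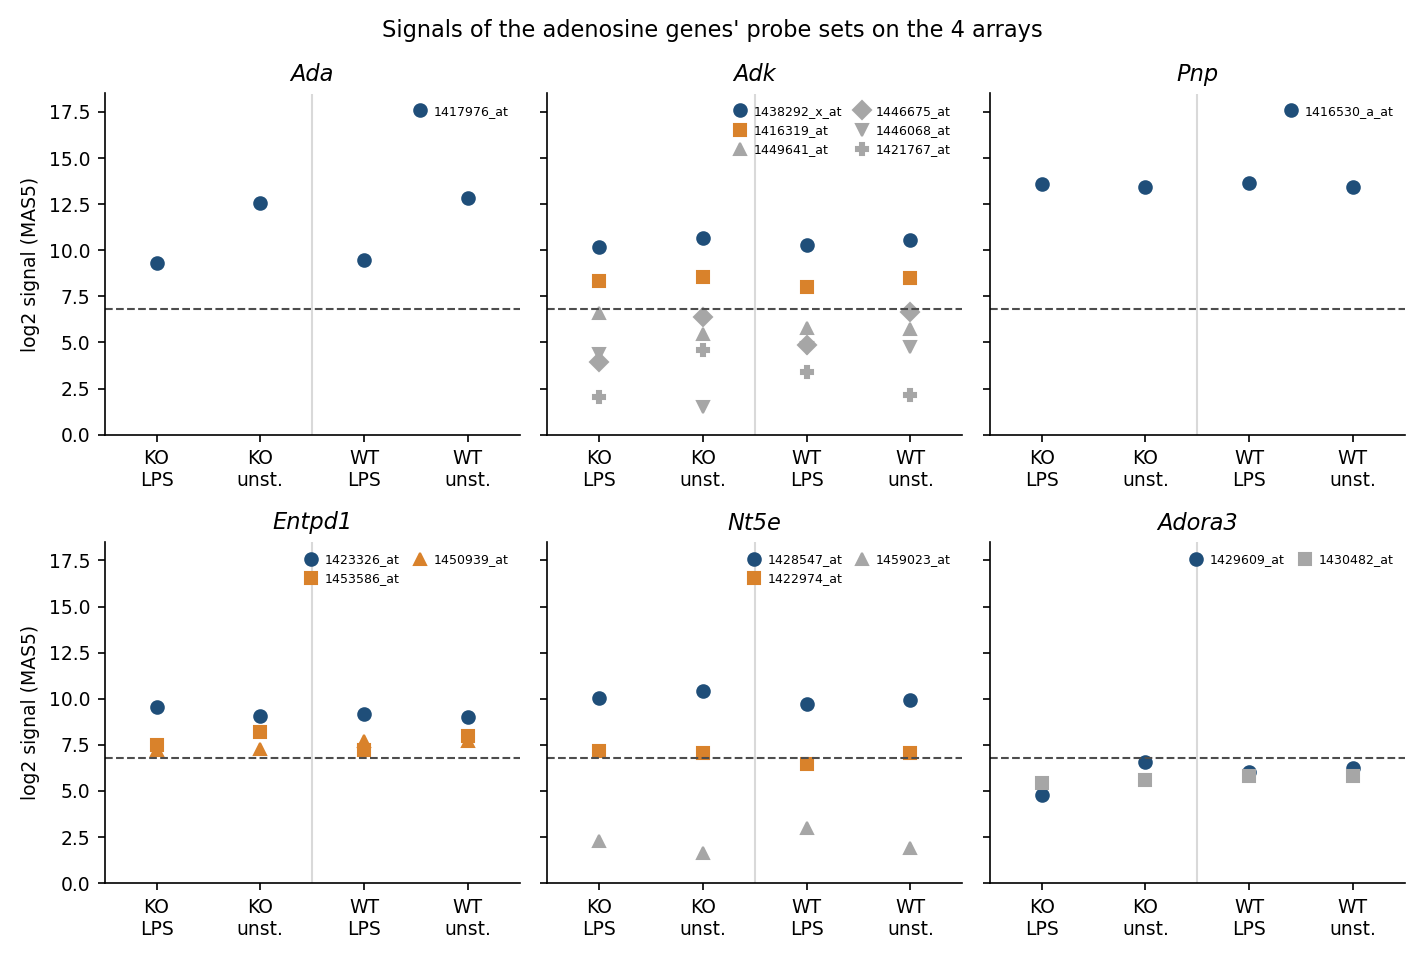
Log2 MAS5 signal (y axis) of every probe set of the 6 genes with probe sets on the knockout (KO) and wild-type (WT) arrays, with LPS or unstimulated (unst.); there is 1 array per condition and no error bar. Blue marks the brightest probe set of a gene, orange other probe sets above the floor on at least 1 array, grey those below it on all, and the dashed line the floor of 6.80. Ada stands at 9.34 and 9.45 on the LPS arrays and at 12.55 and 12.81 on the unstimulated ones. The brightest probe sets of Adk, Pnp, Entpd1 and Nt5e each range over less than 2-fold, from 0.24 for Pnp to 0.68 for Nt5e in log2.

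The other enzyme that removes adenosine, adenosine kinase, was not called. The brightest probe set of Adk, 1438292_x_at, had log2 signals of 10.20 with LPS and 10.68 without in knockout cells. In wild-type cells the signals were 10.28 with LPS and 10.55 without. The differences were -0.48 in knockout cells and -0.27 in wild-type cells. The _x_at suffix marks a probe set that can cross-hybridise, and a second probe set without it, 1416319_at, had 8.35 and 8.55 in knockout cells and 8.01 and 8.47 in wild-type cells, with and without LPS. Its differences were -0.20 in knockout and -0.47 in wild-type cells, so the 2 probe sets put the larger difference in opposite genotypes. The other 4 of the 6 Adk probe sets were below the floor on all arrays.

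Pnp, which acts on the inosine that Ada makes, was bright and nearly level. Probe set 1416530_a_at had log2 signals of 13.60 with LPS and 13.41 without in knockout cells. In wild-type cells it had 13.65 with LPS and 13.44 without. The differences of 0.19 in knockout and 0.21 in wild-type cells were short of 2-fold and turned to -0.44 and -0.40 on the poly-A scale. One more probe set carries the symbols of both Pnp and the related Pnp2 and was left out, and signal from these genes may not be fully separate in the one used here.

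The ectoenzyme genes that make adenosine outside the cell were not called either. The brightest probe set of Entpd1, 1423326_at, had 9.54 with LPS and 9.06 without in knockout cells, and 9.20 with LPS and 8.99 without in wild-type cells. The differences were 0.48 in knockout and 0.21 in wild-type cells, and they were -0.14 and -0.41 on the poly-A scale. The other probe sets of Entpd1 went the other way: 1453586_at had 7.48 and 8.18 in knockout cells with and without LPS and 7.21 and 7.97 in wild-type cells, and its differences were -0.70 and -0.76. Probe set 1450939_at differed by -0.10 in knockout and -0.04 in wild-type cells. The direction for Entpd1 thus depends on the probe set.

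The brightest probe set of Nt5e, 1428547_at, had 10.02 with LPS and 10.43 without in knockout cells, and 9.74 with LPS and 9.92 without in wild-type cells. The differences were -0.41 in knockout and -0.17 in wild-type cells, the second of which was 0.07 under median scaling. A dimmer probe set, 1422974_at, lay close to the floor, with 7.14 and 7.06 in knockout cells with and without LPS. In wild-type cells it had 6.46 with LPS, under the floor, and 7.04 without. The remaining Nt5e probe set was below the floor on all arrays.

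Of the receptor genes only Adora3 had probe sets, and both were below the floor on all 4 arrays. The brighter, 1429609_at, had 4.79 with LPS and 6.57 without in knockout cells, and 6.03 with LPS and 6.26 without in wild-type cells. Probe set 1430482_at ranged from 5.41 to 5.80. Signals this dim give no usable difference, and no level of Adora3 was measured.

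The count over the adenosine genes stands beside that over all genes. After LPS, 1 of 5 measured genes was lower and 0 were higher in knockout cells, where 7.99% of 9578 genes were lower and 6.62% higher. In wild-type cells 1 of 5 was lower and 0 higher, where 9.69% of 9507 genes were lower and 7.29% higher. The called gene is Ada, for which these arrays were already known to differ, so nothing is read from the count. The median over the 5 genes was -0.41 in knockout and -0.17 in wild-type cells, beside -0.05 and -0.03 over all genes. On the poly-A scale, where Adora3 also passes the floor, 3 of 6 were lower in knockout cells, Adk at -1.10 and Nt5e at -1.03 joining Ada. Of all genes there 2612 of 9777 were lower, with a median of -0.62.

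Markers of other cells moved between the same arrays. Of 9 measured monocyte and macrophage markers, 4 were higher and 3 lower after LPS in each genotype, and their summed signal was 50122 with LPS and 30416 without in knockout cells and 52013 and 30214 in wild-type cells. Of the erythroid markers, 4 of 5 measured were lower in knockout cells and 2 of 4 in wild-type cells, with summed signals of 1159 against 4121 and 1182 against 2457. Of T and NK cell markers, a lineage rich in adenosine deaminase, 1 of 7 was above the floor, Cd3d, at 9.35 with LPS and 9.64 without in knockout cells and 9.66 and 9.92 in wild-type cells. No marker of any list was listed at 0. The part of these cells in the Ada difference was not tested.

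**Figure D2:**
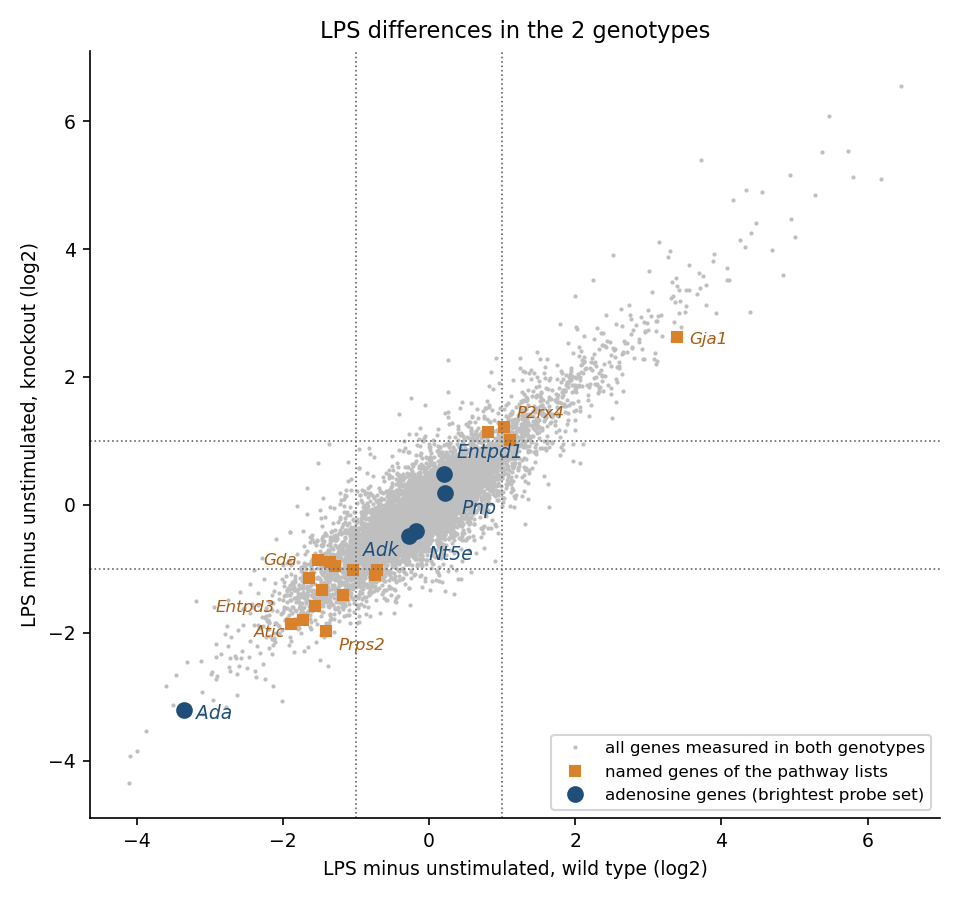
Log2 LPS difference in knockout cells (y axis) against that in wild-type cells (x axis) for every gene measured in both genotypes (grey), the 5 measured adenosine genes (blue) and the named genes of the pathway lists (orange); dotted lines mark 2-fold. Ada sits near the lower left end at -3.22 and -3.36, Gja1 at 2.62 and 3.39 on the other side, and Adk, Pnp, Entpd1 and Nt5e lie inside the 2-fold lines.

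None of the measured adenosine genes differed by 2-fold between knockout and wild-type cells. Without LPS, 0 of 5 were called, where 0.351% of 9401 genes were higher and 0.66% lower in knockout cells. With LPS 0 of 5 were called, where 0.615% of 9262 genes were higher and 0.626% lower. Few genes of any kind passed 2-fold between the genotypes, so a count of 0 of 5 is near what all genes show. The split of those calls depended on the scaling, with 37 higher and 108 lower under median scaling and 47 and 76 under quantile normalization after LPS, against 57 and 58 as deposited. Without LPS it was 54 and 59 on the poly-A scale, against 33 and 62 as deposited.

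Ada was slightly lower in signal in knockout cells in both conditions, by log2 differences of -0.26 without LPS and -0.11 with it. Over all genes the outer 5% at either end lay beyond -0.48 and 0.48 without LPS and beyond -0.50 and 0.55 with it, and both Ada values lay inside these limits. Without LPS, Nt5e had the widest difference of the 5, with 10.43 in knockout against 9.92 in wild-type cells (log2 difference 0.51). This value lay just beyond the upper limit of 0.48. With LPS Nt5e had 10.02 in knockout against 9.74 in wild-type cells (0.28), and Entpd1 had the widest difference. The second Nt5e probe set gave 0.02 and 0.34, so the unstimulated difference rests on 1 probe set. Entpd1 had 0.07 without LPS and 0.34 with it in its brightest probe set, while 1450939_at had -0.44 and -0.50 and 1453586_at 0.21 and 0.28. Pnp had -0.03 and -0.06, and Adk 0.12 and -0.08. In the same arrays the markers of mast cells, basophils and eosinophils were lower in knockout cells for 4 of 6 measured genes without LPS and 2 of 6 with LPS. Their summed signals were 2270 against 4634 and 1961 against 4148. Erythroid markers went the other way without LPS, with 1 of 5 higher in knockout cells (Car1 at 1.05) and summed signals of 4121 against 2457. With LPS 0 of 2 erythroid markers were called, with 1159 against 1182. The part of these cells in the differences was not tested.

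The LPS response itself was set side by side in the 2 genotypes. The knockout LPS difference minus the wild-type one was 0.14 for Ada, -0.21 for Adk, 0.27 for Entpd1, -0.23 for Nt5e and -0.03 for Pnp. None reached 2-fold, as 2.17% of 9220 genes did, 117 upward and 83 downward. That balance turned to 88 and 109 under quantile normalization and to 73 and 137 under median scaling. The sign of this value turned in other probe sets of 3 genes: it was 0.27 in Adk 1416319_at, 0.32 in Nt5e 1422974_at and -0.06 in Entpd1 1450939_at.

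The genes whose values over the 4 arrays ran closest to those of Ada were sought among the 8156 genes above the floor on every array, by the Euclidean distance between log2 profiles centred on their own means. The nearest was Il1r2, the decoy receptor for interleukin-1, at a distance of 0.31. The median gene lay at 3.28, a distance that mostly reflects the LPS step of Ada itself and sets no standard for likeness. It had 11.54 with LPS and 14.59 without in knockout cells and 11.77 and 14.73 in wild-type cells. Next came Fos at 0.41, Atrx, a chromatin remodeller, and Ccr2, a chemokine receptor of monocytes, at 0.44 each, and Foxd4 at 0.53. Fos had 10.61 and 13.27 in knockout cells and 10.28 and 13.75 in wild-type cells, with and without LPS. Other probe sets of Atrx had LPS differences from -2.48 to -0.05 in knockout and from -3.07 to -0.33 in wild-type cells, and those of Ccr2 from -1.64 to -0.34 in knockout and -1.73 and -0.50 in wild-type cells. All of these Ccr2 values, and the smallest of Atrx, have the LPS side at the floor. They are minimum values and do not show that the probe sets disagree. The likeness rests on 4 values per gene and on the single step between LPS and unstimulated arrays, on which Ada was selected. It is a description and supports nothing further.

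The wider purine pathway was followed through 7 lists of 113 genes that hold none of the 8, of which 98 had a probe set and 77 exceeded the floor on at least 1 array. In knockout cells 10 of 74 measured genes were lower after LPS and 4 higher, and in wild-type cells 11 of 75 were lower and 3 higher. Over all genes 7.99% were lower and 6.62% higher in knockout cells, and 9.69% were lower and 7.29% higher in wild-type cells, so the higher genes of the lists were no larger a share than over all genes. Between the genotypes 0 of 73 were called without LPS and 0 of 69 with it. All of the lower genes but Entpd3 and Prkar2b belonged to the 3 lists of purine synthesis, salvage and nucleotide enzymes inside the cell.

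De novo purine synthesis, which builds IMP step by step on a ribose phosphate, had 5 of 10 genes lower and 0 higher in each genotype, with medians of -0.82 in knockout and -0.59 in wild-type cells. Atic, which carries out the last steps to IMP, had 9.08 with LPS and 10.88 without in knockout cells and 8.56 and 10.28 in wild-type cells. It was 3.49-fold lower in knockout and 3.29-fold lower in wild-type cells. Prps2, a synthetase of the ribose phosphate donor, had log2 differences of -1.97 in knockout and -1.41 in wild-type cells, and its relative Prps1 had -1.02 in knockout and -1.05 in wild-type cells. Ppat, the committing amidotransferase, had -1.59 in knockout and -1.56 in wild-type cells, and Pfas, a later enzyme of the route, had -1.42 in knockout and -1.18 in wild-type cells. The count was 4 in knockout and 3 in wild-type cells with either quantile normalization or median scaling. Of all genes, 633 of 9503 and 707 of 9597 were lower with quantile normalization. With median scaling 626 of 9513 and 620 of 9581 were. The count was 3 in knockout and 2 in wild-type cells with a floor at the 75th percentile, and 3 in each with the mean of all probe sets. Of all genes, 412 of 6954 and 528 of 6983 were lower with that floor, and 505 of 9599 and 633 of 9534 with that mean. With poly-A scaling the count was 7 in knockout and 5 in wild-type cells, where 2612 of 9777 and 2585 of 9632 of all genes were lower. A second Prps2 probe set had -0.87 in knockout and -0.51 in wild-type cells and was not called, but its knockout value is a minimum with the LPS side at the floor. A second probe set of Atic was also lower by at least 2-fold in both genotypes. One of Ppat had -1.09 in knockout and -0.96 in wild-type cells, both minimum values with the LPS side at the floor.

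Of 10 measured genes of purine salvage and degradation, 2 were lower and 0 higher in each genotype, and the 2 were Gda and Xdh. Gda, guanine deaminase, had 13.41 with LPS and 14.55 without in knockout cells and 12.84 and 14.48 in wild-type cells, which is 2.21-fold and 3.11-fold lower. Its other 2 probe sets were also lower by 2-fold or more in both genotypes, at -1.52 and -1.44 in knockout and -1.83 and -1.56 in wild-type cells. Xdh, xanthine dehydrogenase, which makes urate from hypoxanthine and xanthine, had 11.05 with LPS and 12.39 without in knockout cells and 11.34 and 12.81 in wild-type cells, which is 2.53-fold and 2.76-fold lower. The list medians were -0.19 in knockout and -0.40 in wild-type cells. On the poly-A scale 4 of 10 genes were lower in knockout and 5 of 10 in wild-type cells, where 2612 of 9777 and 2585 of 9632 of all genes were lower.

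Among enzymes that handle AMP, IMP and related nucleosides in the cell, 2 of 12 were lower in each genotype by their brightest probe sets, which named other genes in each. In knockout cells these were Ampd2, an AMP deaminase, at -1.03 and Ak3, a mitochondrial adenylate kinase, at -1.09, which had -0.71 and -0.75 in wild-type cells. In wild-type cells they were Nt5c3, a nucleotidase that prefers pyrimidine nucleotides, and Mtap, which frees adenine from methylthioadenosine. Nt5c3 had -0.90 in knockout and -1.35 in wild-type cells, and Mtap had -0.96 in knockout and -1.28 in wild-type cells. Other probe sets did not keep this split. A second probe set of Ampd2 was lower in both genotypes, at -1.16 in knockout and -1.43 in wild-type cells. So was one of Mtap, at -1.04 in knockout and -1.15 in wild-type cells, the latter a minimum with the LPS side at the floor. A second one of Ak3 was not called in either, at -0.80 in knockout and -0.19 in wild-type cells, the first a minimum with the LPS side at the floor. Under median scaling 0 were called in knockout cells and 2 in wild-type cells, where 626 of 9513 and 620 of 9581 of all genes were lower. On the poly-A scale 6 of 13 were lower in knockout cells and 8 of 13 in wild-type cells, where 2612 of 9777 and 2585 of 9632 of all genes were lower.

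The list of other nucleotide-degrading enzymes and related genes had 1 lower gene of 7 in knockout and of 8 in wild-type cells, namely Entpd3, a relative of Entpd1. It was below the floor with LPS in both genotypes and was at least 3.65-fold lower in knockout and at least 3.71-fold lower in wild-type cells, with signals of 8.67 and 8.69 without LPS. With a floor at the 75th percentile it was not called. Transporters and ATP release channels had 1 higher gene of 5 in knockout and of 6 in wild-type cells: Gja1, connexin 43, whose channels can release ATP. Its signals were 10.92 with LPS and 8.30 without in knockout cells and 10.78 and 7.39 in wild-type cells, which is 6.14-fold and 10.5-fold higher. Of its other 5 probe sets, 3 were at least 2-fold higher in both genotypes, at 2.81, 3.09 and 2.93 in knockout and 3.29, 2.84 and 2.62 in wild-type cells, 1 had 0.92 and 0.20, and 1 was below the floor. The values 0.92 and 0.20 are minimum values, with the unstimulated side at the floor. The same holds for 3.09 and 2.93 in knockout and 2.84 and 2.62 in wild-type cells.

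Of the other nucleotide receptors, 1 of 9 in knockout and 1 of 8 in wild-type cells was higher, P2rx4, an ATP-gated cation channel, at 1.22 and 1.02. Its other probe sets above the floor had 0.61 and 0.34 in knockout cells and 0.31 in wild-type cells. These are minimum values, with the unstimulated side at the floor. P2rx4 was not called with the mean of its probe sets, without the _s_at, _x_at and _a_at probe sets, with a floor at the 75th percentile or on the poly-A scale. The list of cyclic AMP signalling genes, the route of the Adora2a and Adora2b receptors, had 2 of 21 higher and 0 lower in knockout cells and 1 of 21 higher and 1 lower in wild-type cells. Pde8a, a cyclic AMP phosphodiesterase, had 1.01 in knockout and 1.11 in wild-type cells, and 1.02 and 0.34 in its other probe set. Pde4b, a phosphodiesterase induced in many leukocytes, had 1.14 and 0.81 in its brightest probe set and 1.85 and 1.75, and 1.86 and 2.38, in 2 others, so its call in wild-type cells depends on the probe set. Prkar2b, a regulatory subunit of protein kinase A, had -0.87 in knockout and -1.52 in wild-type cells, and its other 2 probe sets were at least 2-fold lower in both. On the poly-A scale 0 genes of this list were higher, and 2 of 21 were lower in knockout and 4 of 23 in wild-type cells. Over all genes 2612 of 9777 and 2585 of 9632 were lower there, a larger share.

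**Figure D3:**
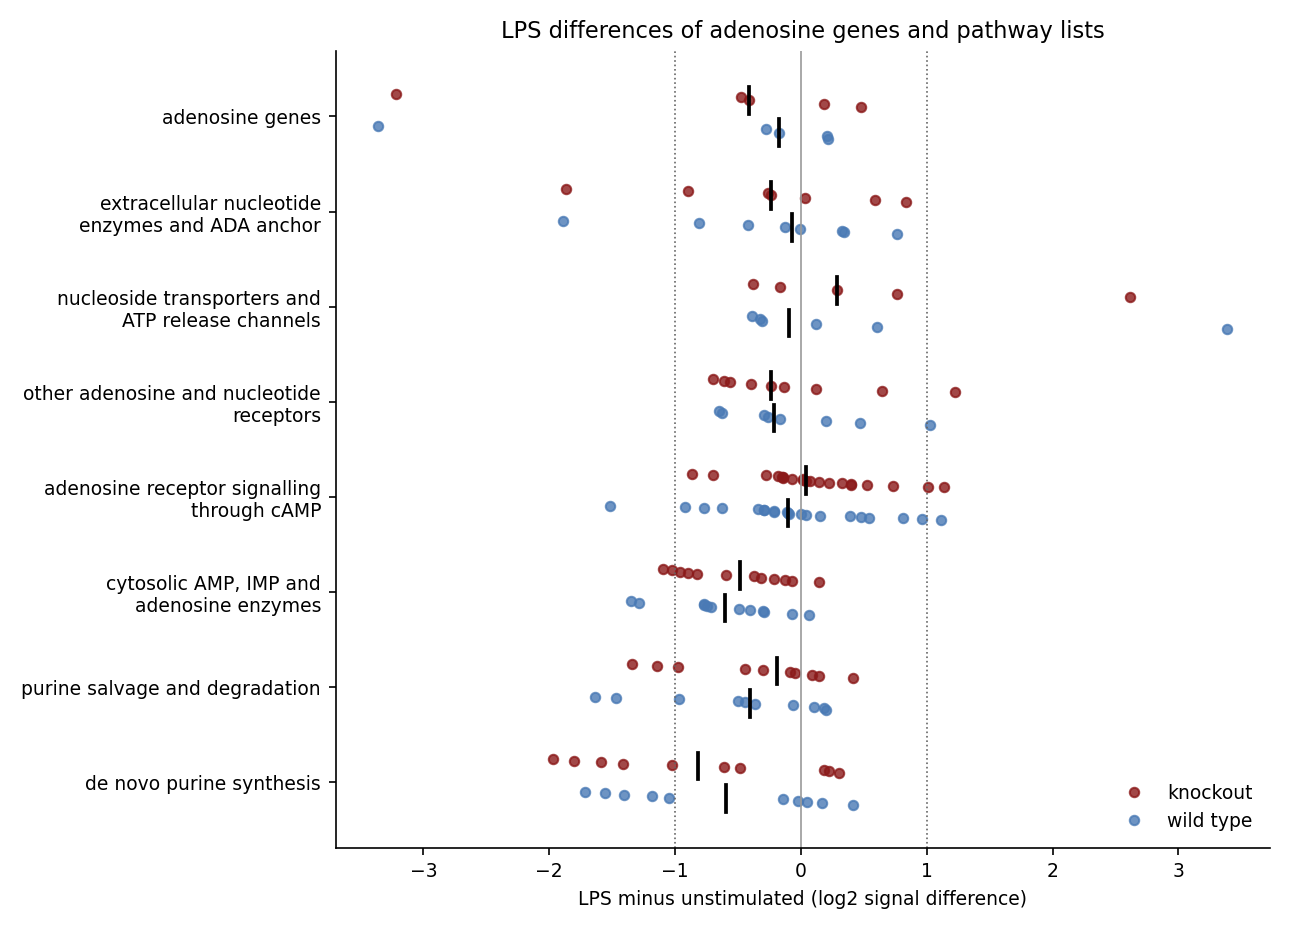
Log2 LPS differences (x axis) of the measured adenosine genes and the 7 pathway lists (y axis), with knockout cells (red) above wild-type cells (blue); each point is 1 gene, black bars are list medians and dotted lines mark 2-fold. Ada lies lowest at -3.22 and -3.36, Gja1 highest at 2.62 and 3.39, and de novo purine synthesis has medians of -0.82 and -0.59.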

How the data were processed

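Per the submitters' processing notes the authors made the values with MAS5, with no version in those notes, and deposited 1 log2 signal per probe set and array. The unlogged values had a trimmed mean (2% cut at each end) of 500.003 to 500.004 on every array, so a shift shared by most genes would not show. Dim probe sets scatter, and 298 to 428 per array are listed at 0. With 4 arrays, their number limits the precision, and no read depth exists.

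Gene symbols came from the platform annotation, and 932 probe sets with several symbols were left out. The floor was the 60th percentile (log2 6.80, signal 111). Differences are the first group minus the second, and where one side was at the floor the fold is a minimum. With 1 array per condition no p-value or standard deviation was computed. Named were all 8 genes, pathway list genes called after LPS (at most 6 a list) or between genotypes, and the 5 genes nearest to Ada. The members and lists were chosen with earlier results of these data known. Alternatives were other floors, scalings, probe set rules and a 1.5-fold call. The code was tested on simulated data. Python 3.11.15, NumPy 2.4.6, pandas 2.3.3 and SciPy 1.17.1 were used.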

Additional observations from a re-analysis of the deposited data

Results flagged for a closer look

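In 2 probe sets a difference had opposite signs in the 2 settings of the same contrast, and with 1 array per condition neither was tested. Adk, in probe set 1438292_x_at, had a knockout minus wild-type difference of 0.12 without LPS and -0.083 with it. Nt5e, in the dimmer probe set 1422974_at, had an LPS difference of 0.079 in knockout cells and -0.24 in wild-type cells, where the LPS value was at the floor. All 4 values are far short of 2-fold.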

How the results depend on the processing

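Ada stayed lower by more than 2-fold after LPS in both genotypes under each of the 9 alternatives, and in wild-type cells it was the only adenosine gene called under each of them. For Ada only the scalings could alter the value. With a single bright probe set, the floors, probe set rules and call limit left it unchanged by construction. In knockout cells the count of called genes after LPS was 2 with no floor, by Adora3 at -1.78, and 3 on the poly-A scale. With no floor the count was also 1 between genotypes with LPS (Adora3 at -1.24) and 1 for the difference between the LPS responses (Adora3 again). These Adora3 values come from signals below the floor. Of the single-gene values under the alternatives, 218 kept their side of 2-fold and 2 passed it (Adk and Nt5e on the poly-A scale), and 0 called values changed sign. Many of the 218 could not change, since the other floors and the call limit left the values of every measured adenosine gene as they were. The probe set rules also repeated some values, so the 218 is no measure of stability. Directions of the genes that were not called did change: Entpd1 ranged from -0.14 to 0.61 in knockout cells after LPS and Pnp from -0.44 to 0.29. No paired analysis was possible because each condition has 1 array and the labels carry no replicate numbers. Signals under the floor limit what can be said of Adora3 and of 7 of the 16 probe sets.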
